A study of Mus musculus with 8 samples.

Results

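The genes described here are 47 genes of the extracellular matrix other than collagens, together with the enzymes that crosslink, cut and protect that matrix, measured in mouse soleus muscle. They were chosen by name in the array files: elastic fibre and adhesive glycoproteins, proteoglycans, matricellular proteins, basement membrane proteins, crosslinking and processing enzymes, proteases, protease inhibitors, a growth factor and a tendon membrane protein. Of the 47 genes, 46 could be measured, among 22221 genes tested in all. Mmp3, a secreted protease (stromelysin), was left out because its 1 probe was well above background on 0 P. gingivalis arrays and on 1 saline array.

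Muscle fibres are each wrapped in a basement membrane of laminins, nidogens, perlecan and type IV collagen. Outside it lies an interstitial matrix of fibrillar collagens, elastic fibres and proteoglycans, which is made largely by fibroblasts and carries force towards the tendon. Lysyl oxidases crosslink its fibres, metalloproteases of the Mmp and Adamts families cut it, and the Timp proteins inhibit those proteases. Injury, disuse and inflammation are known to remodel this matrix.

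The study compared 4 soleus samples of male C57BL/6J mice that had received Porphyromonas gingivalis, a bacterium of human gum disease, with 4 samples of such mice given saline only. The bacteria were given by feeding needle in 100 µL of saline for 6 weeks from the age of 8 weeks, and all mice ate a high-fat diet (High-fat diet 32) and were 14 weeks old at sampling. Since the records do not state that every array came from its own mouse, the p-values given here reflect only how these samples scatter, which may be technical. All 8 arrays lay on 1 slide, the P. gingivalis arrays on 1 side and the saline arrays on the other, and the effect of slide side cannot be told apart from that of the group.

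Values are log2 signals on a scale where 0 is the 75th percentile of that array, and a log2 difference is P. gingivalis minus saline. Every direction follows the groups of the sample records. The columns of the authors' deposited table carry the groups exchanged, and every sign given here would turn if the table rather than the records were right. In bulk muscle, fewer cells of a type and less RNA per cell cannot be told apart.

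The 75th percentile signal was 648 to 738 on the P. gingivalis arrays and 696 to 764 on the saline arrays, with the lowest value in P. gingivalis 2, the 1 array whose extraction status was not in range. Of 59305 spots, 37525 to 38068 were well above background on the P. gingivalis arrays, against 32836 to 36769 on the saline arrays. All 10 slow-fibre markers, which define the soleus, were measured, and their summed level was 3995 to 4358 times the 75th percentile in P. gingivalis samples and 3568 to 3789 times in saline samples. Myl2, a slow myosin light chain, had a log2 level of 9.01 in P. gingivalis samples and 8.80 in saline samples.

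None of the 46 measured matrix genes passed limma's test at an adjusted p of 0.05 over all genes, where 0.117% of all genes did (26 of 22221). The smallest adjusted p was 0.119, for Lox. At an unadjusted p of 0.05, 7 of the 46 passed (15.2%), against 19.7% of all genes. Of the 7, 6 had a log2 difference below 0 (13.0% of the 46, against 9.66% of all genes) and 1 above 0, where the share over all genes was 10.1%. The groups did not overlap for 2 of the 46 (4.35%), Fn1 and Lox, against 13.4% of all genes. The shares in both directions together and without overlap were thus below those of all genes.

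The direction was less even. The log2 difference was below 0 for 38 of the 46 genes (82.6%), against 52.3% of all genes. The median was -0.15, against -0.011 over all genes, and the differences ran from -0.60 for Fbn1 to 0.24 for Timp3. The count depends on how the arrays are scaled: with each array centred on the median of all its probes, 24 of the 46 were below 0 and the median was -0.0026. That scaling moved the median of all genes to 0.14. Relative to it the members' median was -0.14, and 36 of the 46 lay below the median of all genes under both scalings. Both scalings shift all genes of an array by the same amount. That count therefore could not differ between them and is no check on the direction.

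**Figure D1:**
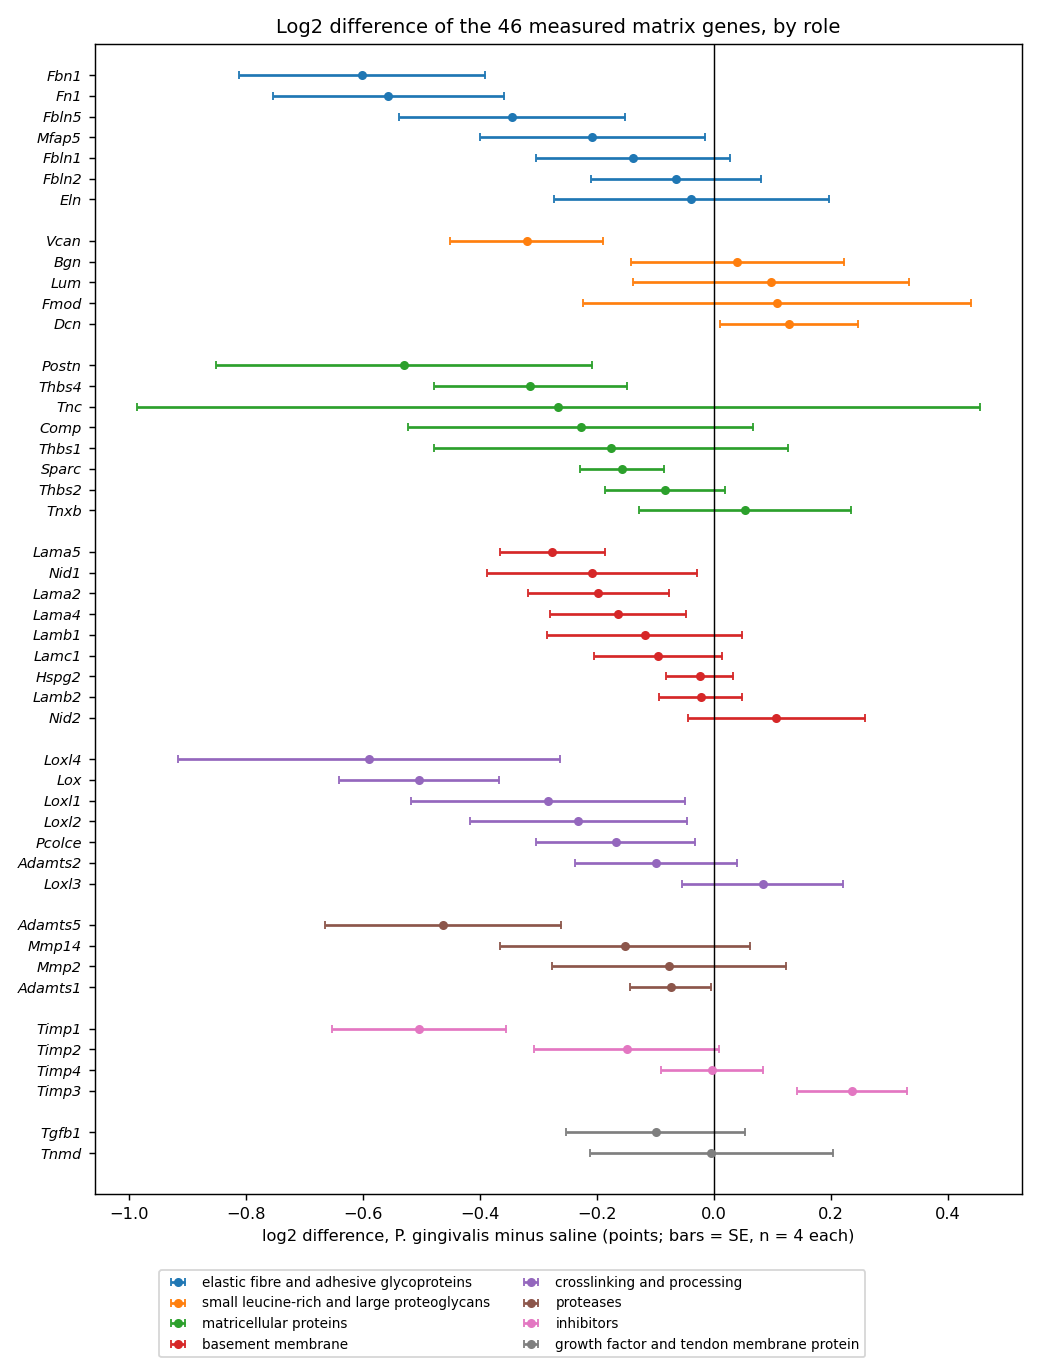
Log2 difference (x axis, P. gingivalis minus saline) of each of the 46 measured matrix genes (rows), grouped and coloured by role. Points are the fitted differences and bars their standard errors (4 samples per group). Most points lie left of 0, from -0.60 for Fbn1 to 0.24 for Timp3, and no gene passed the adjusted threshold.

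Promoter sequence could be matched for 31 of the 47 genes, with 35 promoters in all, from RefSeq's GRCm38.p6 annotation. Shown are the 250 bases before the start of Fbn1, Postn, Timp1 and Timp3, as examples with differences far below 0 (Fbn1, Postn and Timp1) and the highest above it (Timp3), picked after the values were seen. Capitals mark a match to one of the motifs searched on both strands.

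Fbn1 (GRCm38.p6, chr2:125506439-125506688, minus strand): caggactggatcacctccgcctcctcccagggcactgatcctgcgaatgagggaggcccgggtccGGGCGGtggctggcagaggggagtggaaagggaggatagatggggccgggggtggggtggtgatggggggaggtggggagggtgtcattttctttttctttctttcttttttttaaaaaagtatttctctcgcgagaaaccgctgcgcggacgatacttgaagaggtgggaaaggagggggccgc
Postn, second of 2 starts (GRCm38.p6, chr3:54360857-54361106, plus strand): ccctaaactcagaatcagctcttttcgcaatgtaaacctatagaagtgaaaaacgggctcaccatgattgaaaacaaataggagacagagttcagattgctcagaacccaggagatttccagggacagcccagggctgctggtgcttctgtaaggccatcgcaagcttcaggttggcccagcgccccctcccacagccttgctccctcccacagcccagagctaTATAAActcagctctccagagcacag
Timp1 (GRCm38.p6, chrX:20869916-20870165, plus strand): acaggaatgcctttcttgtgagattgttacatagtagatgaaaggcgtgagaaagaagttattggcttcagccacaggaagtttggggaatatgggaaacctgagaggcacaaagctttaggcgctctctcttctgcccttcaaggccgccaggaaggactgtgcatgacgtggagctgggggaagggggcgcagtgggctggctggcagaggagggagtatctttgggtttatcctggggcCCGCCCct
Timp3 (GRCm38.p6, chr10:86300162-86300411, plus strand): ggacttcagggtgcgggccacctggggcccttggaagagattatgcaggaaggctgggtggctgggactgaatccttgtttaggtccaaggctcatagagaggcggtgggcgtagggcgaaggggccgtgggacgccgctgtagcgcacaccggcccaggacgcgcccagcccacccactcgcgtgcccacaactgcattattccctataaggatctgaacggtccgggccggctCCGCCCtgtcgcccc

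The motifs were a TATA box (TATAAA), a GC box (GGGCGG), an AP-1 site (TGANTCA) and a Smad-binding repeat (CAGACA). Each promoter printed holds 1 match, so no match overlaps another. A GC box stood in 62.9% of the 35 promoters, against 42.6% of the 21263 promoters of protein-coding genes and 32.7% of all 32851 promoters. The TATA box stood in 17.1%, against 11.6% of protein-coding promoters and 12.4% of all. The AP-1 letters stood in 5.71%, against 6.13% of protein-coding promoters and 6.75% of all. The Smad letters stood in 22.9%, against 15.2% of protein-coding promoters and 17.1% of all. In the promoters printed, the matches begin 185 bases before the start of Fbn1, 26 before Postn, 8 before Timp1 and 15 before Timp3. Timp1 and Timp3, whose differences have opposite signs, both hold a GC box close to the start. A match of letters describes the window and does not show binding.

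The 7 elastic fibre and adhesive glycoproteins all had log2 differences below 0, with a median of -0.21. None passed the adjusted threshold, and 2 had an unadjusted p under 0.05. Fbn1 encodes fibrillin-1, the scaffold of elastic microfibrils, and its probe lies at chr2:125126583-125126642 of mouse build mm9. Its log2 levels were 1.56, 1.24, 1.74 and 1.61 in P. gingivalis samples, against 1.89, 2.44, 1.69 and 2.55 in saline samples. P. gingivalis 2 was the lowest, saline 2 and 4 were the highest, and the groups overlapped through saline 3. Between the group means the log2 difference was -0.60 ± 0.21 (SE), a ratio of 0.66, with an adjusted p of 0.181 by limma.

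Fn1 encodes fibronectin, which links cells to collagen, and its probe lies at chr1:71632116-71632175 (mm9). Samples with P. gingivalis had log2 levels of 3.11, 2.67, 3.16 and 3.26, against 3.27, 3.88, 3.33 and 3.95 in saline samples. The groups did not overlap, although P. gingivalis 4 and saline 1 almost met. Fn1 had a log2 difference of -0.56 ± 0.20 (SE), a ratio of 0.68, with an adjusted p of 0.186 by limma. All 4 kept Fn1 probes had a difference below 0, from -0.80 to -0.26, as did all 3 kept Fbn1 probes, from -1.02 to -0.34.

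Fbln5 encodes fibulin-5, which is needed to assemble elastic fibres (probe at chr12:102988153-102988212, mm9). On the log2 scale it stood at 1.36, 0.94, 1.49 and 1.39 in P. gingivalis samples, against 1.56, 1.92, 1.17 and 1.91 in saline samples. Saline 3 lay below 3 of the P. gingivalis samples, and the log2 difference of -0.35 ± 0.19 (SE) had an adjusted p of 0.363 by limma. Elastin itself (Eln), the rubber-like core of the fibre, had a difference of -0.039 ± 0.23 (SE), and its 95% interval ran from -0.58 to 0.50. A second Eln probe had -0.40 ± 0.21 (SE), and the mean of both gave -0.22. The other members, the microfibril protein Mfap5 and the fibulins Fbln1 and Fbln2, ranged from -0.21 to -0.065.

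The proteoglycans stood mostly on the other side of 0. Of 5, 4 had a log2 difference above 0, with a median of 0.097, and 1, Vcan, had a difference below 0. Vcan encodes versican, a large proteoglycan of provisional matrix (probe at chr13:89795080-89795139, mm9). Versican's log2 levels were -1.76, -1.75, -1.46 and -2.07 in P. gingivalis samples, against -1.48, -1.36, -1.61 and -1.31 in saline samples. P. gingivalis 3 lay among the saline samples, and the other 3 were below them all. Its log2 difference was -0.32 ± 0.13 (SE), with an adjusted p of 0.231 by limma. The 3 kept Vcan probes had differences from -1.23 to -0.22, with a mean of -0.59. The probe at -1.23 had an SE of 0.67 and rested on saline 1 and 3. It stood at -2.48, -4.58, -1.52 and -4.52 in saline samples, against -4.63 to -4.36 in P. gingivalis samples.

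The 4 small leucine-rich proteoglycans, which bind collagen fibrils and set their thickness, all had log2 differences with 95% intervals that held 0. Decorin (Dcn) had the highest log2 difference of them, 0.13 ± 0.12 (SE, adjusted p 0.576 by limma), with a 95% interval of -0.15 to 0.40. Lumican (Lum) and fibromodulin (Fmod) had differences of 0.097 and 0.11, and biglycan (Bgn) of 0.039.

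Of the 8 matricellular proteins, which modulate the contact of cells with the matrix more than they build it, 7 had a log2 difference below 0, with a median of -0.20. None had an unadjusted p under 0.05. Postn encodes periostin, which fibroblasts secrete in repair (probe at chr3:54194483-54194542, mm9). Periostin's log2 levels were 1.44, 0.68, 1.57 and 1.52 in P. gingivalis samples, against 1.26, 1.81, 1.60 and 2.66 in saline samples. P. gingivalis 2 was far below and saline 4 far above the other samples, while saline 1 lay below 3 P. gingivalis samples. Its log2 difference was -0.53 ± 0.32 (SE), with an adjusted p of 0.397 by limma. It was -0.25 without saline 4, the sample it depended on most. The 3 kept Postn probes had differences from -0.65 to -0.51.

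Thbs4, thrombospondin-4, and Comp, cartilage oligomeric matrix protein, are related proteins of tendon and of the muscle-tendon junction. Thbs4 (probe at chr13:93521565-93521624, mm9) had log2 levels of 4.10, 4.08, 4.49 and 4.68 in P. gingivalis samples, against 4.72, 4.91, 4.41 and 4.58 in saline samples. Comp (probe at chr8:72905692-72905825, mm9) had log2 levels of 1.38, 1.51, 2.16 and 2.53 in P. gingivalis samples, against 2.26, 2.15, 2.50 and 1.58 in saline samples. Both genes were low in P. gingivalis 1 and 2 and high in P. gingivalis 4, and both overlapped between groups. The log2 difference was -0.31 ± 0.16 (SE, adjusted p 0.333 by limma) for Thbs4 and -0.23 ± 0.30 (SE, adjusted p 0.697 by limma) for Comp. Without P. gingivalis 1, Comp had a difference of -0.057.

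The other matricellular genes included Sparc, a collagen-binding protein also called osteonectin, whose log2 difference was -0.16 ± 0.072 (SE, adjusted p 0.273 by limma). The thrombospondins Thbs1 and Thbs2 had differences of -0.18 and -0.084. Tenascin-C (Tnc), a protein of injured matrix and of the tendon junction, was well above background on 3 P. gingivalis and 2 saline arrays, and its difference of -0.27 had an SE of 0.72. Tenascin-X (Tnxb), which spaces collagen fibrils, was the 1 matricellular gene above 0, at 0.053 ± 0.18 (SE).

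**Figure D2:**
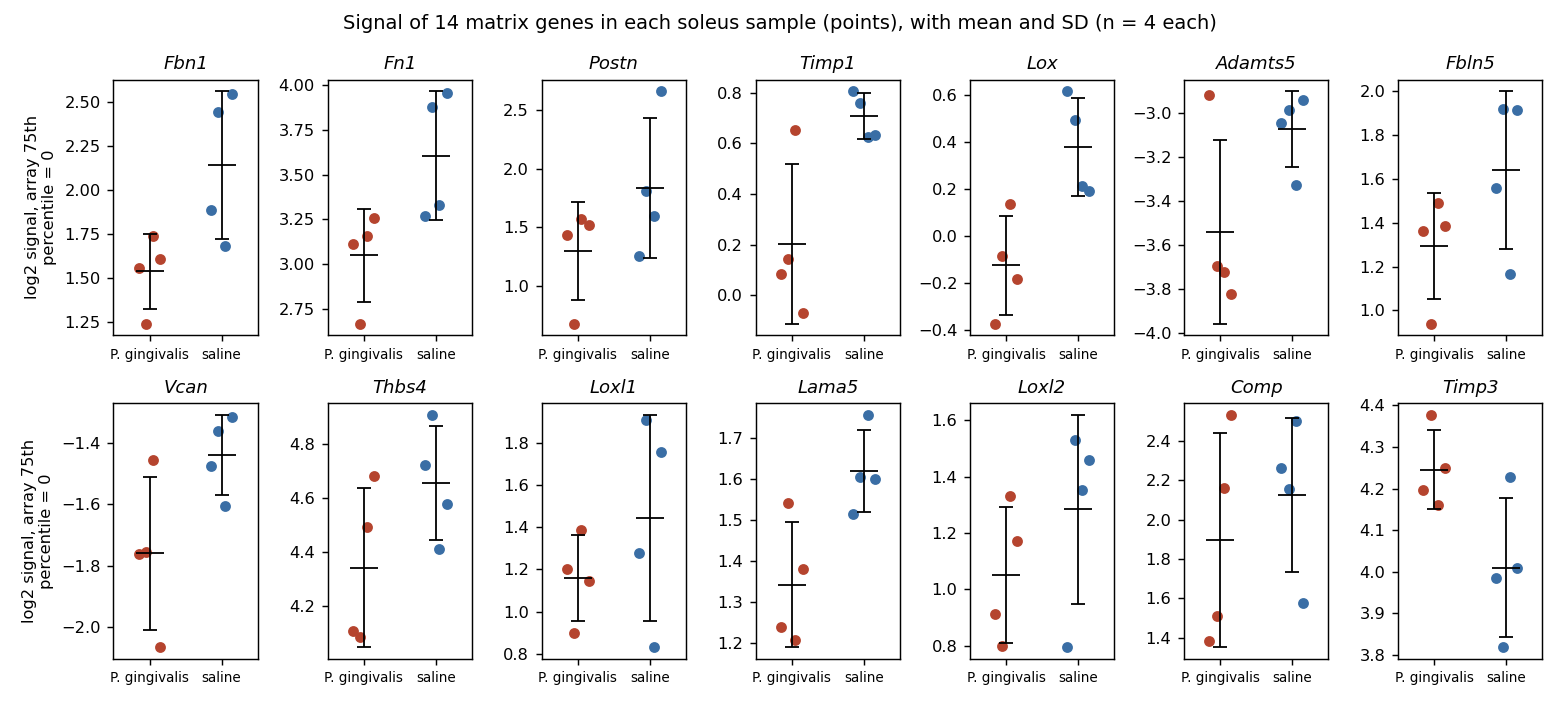
Log2 level (y axis, 0 is the 75th percentile of each array) of the 14 matrix genes given in every sample. Points are single samples, the 4 P. gingivalis samples left of the 4 saline samples, and bars are group means with standard deviations. The groups are apart in Fn1 and Lox and overlap in the other 12 panels, of which Timp3 alone has the higher mean in P. gingivalis samples.

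In the basement membrane, 8 of 9 genes had a log2 difference below 0, with a median of -0.12, and 1 had an unadjusted p under 0.05. That gene was Lama5, which encodes the laminin alpha-5 chain of vessel and nerve basement membranes (probe at chr2:179911079-179911138, mm9). Its log2 levels were 1.24, 1.54, 1.21 and 1.38 in P. gingivalis samples, against 1.51, 1.60, 1.76 and 1.60 in saline samples. P. gingivalis 2 lay above saline 1, and otherwise the groups were apart. Lama5 had a log2 difference of -0.28 ± 0.090 (SE), a ratio of 0.83, with an adjusted p of 0.163 by limma.

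Lama2, the laminin chain of the muscle fibre's own basement membrane and the gene mutated in a congenital muscular dystrophy, differed by -0.20 ± 0.12 on the log2 scale (SE, adjusted p 0.398 by limma). Lama4, Lamb1 and Lamc1 had differences of -0.16, -0.12 and -0.096. The nidogens, which tie laminin to type IV collagen, had opposite signs: Nid1 had a difference of -0.21 ± 0.18 (SE) and Nid2 of 0.11 ± 0.15 (SE). Values nearest to 0 came from perlecan (Hspg2) and the laminin beta-2 chain (Lamb2), at -0.025 and -0.023. Their 95% intervals were -0.16 to 0.11 for Hspg2 and -0.19 to 0.14 for Lamb2.

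Among the 7 crosslinking and processing enzymes, 6 had a log2 difference below 0, with a median of -0.23. Lox encodes lysyl oxidase, which crosslinks collagen and elastin. Its log2 levels were -0.37, -0.085, 0.13 and -0.18 in P. gingivalis samples, against 0.61, 0.49, 0.21 and 0.19 in saline samples. Every P. gingivalis sample lay below every saline sample, with P. gingivalis 3 closest to saline 4. Lox had a log2 difference of -0.50 ± 0.14 (SE), a ratio of 0.71 with the smallest p of these genes, with an adjusted p of 0.119 by limma. It ranged from -0.59 to -0.42 when each sample was left out, with adjusted p-values of 0.117 to 0.229 by limma. A second Lox probe, also well above background on all 8 arrays, had -0.29 ± 0.20 (SE), and its groups overlapped. The mean of both probes gave -0.40 with an adjusted p of 0.256 by limma.

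Loxl1, the lysyl oxidase of elastic fibres (probe at chr9:58138570-58138629, mm9), had log2 levels of 1.20, 0.90, 1.39 and 1.15 in P. gingivalis samples, against 1.28, 1.91, 0.83 and 1.76 in saline samples. Loxl2, which also acts on type IV collagen (probe at chr14:70095254-70095313, mm9), had log2 levels of 0.91, 0.80, 1.33 and 1.17 in P. gingivalis samples, against 0.79, 1.53, 1.35 and 1.46 in saline samples. Both pairs of groups overlapped, since the lowest value of each gene was in a saline sample, saline 3 for Loxl1 and saline 1 for Loxl2. The log2 difference was -0.28 ± 0.23 (SE, adjusted p 0.531 by limma) for Loxl1 and -0.23 ± 0.19 (SE, adjusted p 0.516 by limma) for Loxl2. Without saline 2, the difference of Loxl1 was -0.13.

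Loxl4 had the lowest log2 difference of the enzymes, -0.59 ± 0.33 (SE, adjusted p 0.359 by limma), but was well above background on 3 P. gingivalis and 2 saline arrays. With normexp background correction Loxl4 was at -0.17, while Lox was at -0.49, Loxl1 at -0.28 and Loxl2 at -0.26. Loxl3 had the highest, 0.083 ± 0.14 (SE). Pcolce, which enhances the removal of procollagen's C-terminal propeptide, and Adamts2, which removes the N-terminal one, had differences of -0.17 and -0.099.

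All 4 measured proteases had a log2 difference below 0, with a median of -0.11, and none had an unadjusted p under 0.05. Adamts5 cuts aggrecan and versican (probe at chr16:85899450-85899509, mm9). Its log2 levels were -2.92, -3.69, -3.72 and -3.82 in P. gingivalis samples, against -3.05, -2.99, -3.33 and -2.94 in saline samples. P. gingivalis 1 was the highest of all 8 samples, and the other P. gingivalis samples were the lowest 3. The log2 difference of Adamts5 was -0.46 ± 0.20 (SE, adjusted p 0.256 by limma), and -0.67 without P. gingivalis 1 (adjusted p 0.104 by limma). A second Adamts5 probe had -0.077 ± 0.18 (SE), the mean of both gave -0.27 (adjusted p 0.434 by limma), and normexp background correction gave -0.29.

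The gelatinase Mmp2 and its activator Mmp14, a membrane-bound protease, had log2 differences of -0.078 ± 0.20 and -0.15 ± 0.21 (SE). Adamts1, another protease of versican, had the difference closest to 0 of the proteases, -0.075 ± 0.070 (SE, adjusted p 0.581 by limma).

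The 4 inhibitors had log2 differences on both sides of 0. Timp1 encodes the secreted inhibitor that is induced in many inflamed tissues (probe at chrX:20451675-20451733, mm9). In log2 levels it stood at 0.082, 0.14, 0.65 and -0.071 in P. gingivalis samples, against 0.81, 0.76, 0.63 and 0.63 in saline samples. P. gingivalis 3 lay just above saline 3 and 4, while the other P. gingivalis samples were below every saline sample. Timp1 had a log2 difference of -0.50 ± 0.15 (SE), a ratio of 0.70, with an adjusted p of 0.136 by limma. Without P. gingivalis 3 the difference was -0.66, and across all the samples left out in turn the adjusted p was 0.111 to 0.255 by limma.

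Timp3, the inhibitor that stays bound to the matrix and also acts on Adamts proteases (probe at chr10:85812041-85812100, mm9), was the 1 gene with an unadjusted p under 0.05 and a difference above 0. Its log2 levels were 4.20, 4.38, 4.16 and 4.25 in P. gingivalis samples, against 3.98, 3.82, 4.23 and 4.01 in saline samples. Saline 3 lay within the P. gingivalis range, and the other saline samples were below it. Timp3 had a log2 difference of 0.24 ± 0.094 (SE), a ratio of 1.18, with an adjusted p of 0.226 by limma. Timp2, needed to activate Mmp2 on the cell surface, had a difference of -0.15 ± 0.16 (SE). Timp4, an inhibitor found in heart and muscle, had a difference of -0.0042 with a 95% interval of -0.21 to 0.20.

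Tgfb1, the growth factor that induces many matrix genes in fibroblasts, differed by -0.10 ± 0.15 on the log2 scale (SE, adjusted p 0.745 by limma). Tnmd, the membrane protein tenomodulin of tendon cells, had a difference of -0.0049, with a 95% interval of -0.49 to 0.48 that holds sizeable differences either way.

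The matrix genes varied together between samples of the same group. Averaged over the 46 genes, the deviation from each gene's mean over all samples was -0.18, -0.27, 0.096 and 0.022 on the log2 scale in P. gingivalis samples, against -0.0023, 0.26, -0.15 and 0.23 in saline samples. P. gingivalis 1 and 2 and saline 3 were low, saline 2 and 4 were high, and the samples of either group spanned more than the gap between the groups. Of the 46 genes, 8, 6, 33 and 26 lay above their own mean in the P. gingivalis samples, against 21, 40, 13 and 36 in the saline samples. P. gingivalis 2 held the lowest value of 19 genes, P. gingivalis 1 of 8 and saline 3 of 9, while the highest value lay in saline 2 for 19 genes and in saline 4 for 10.

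**Figure D3:**
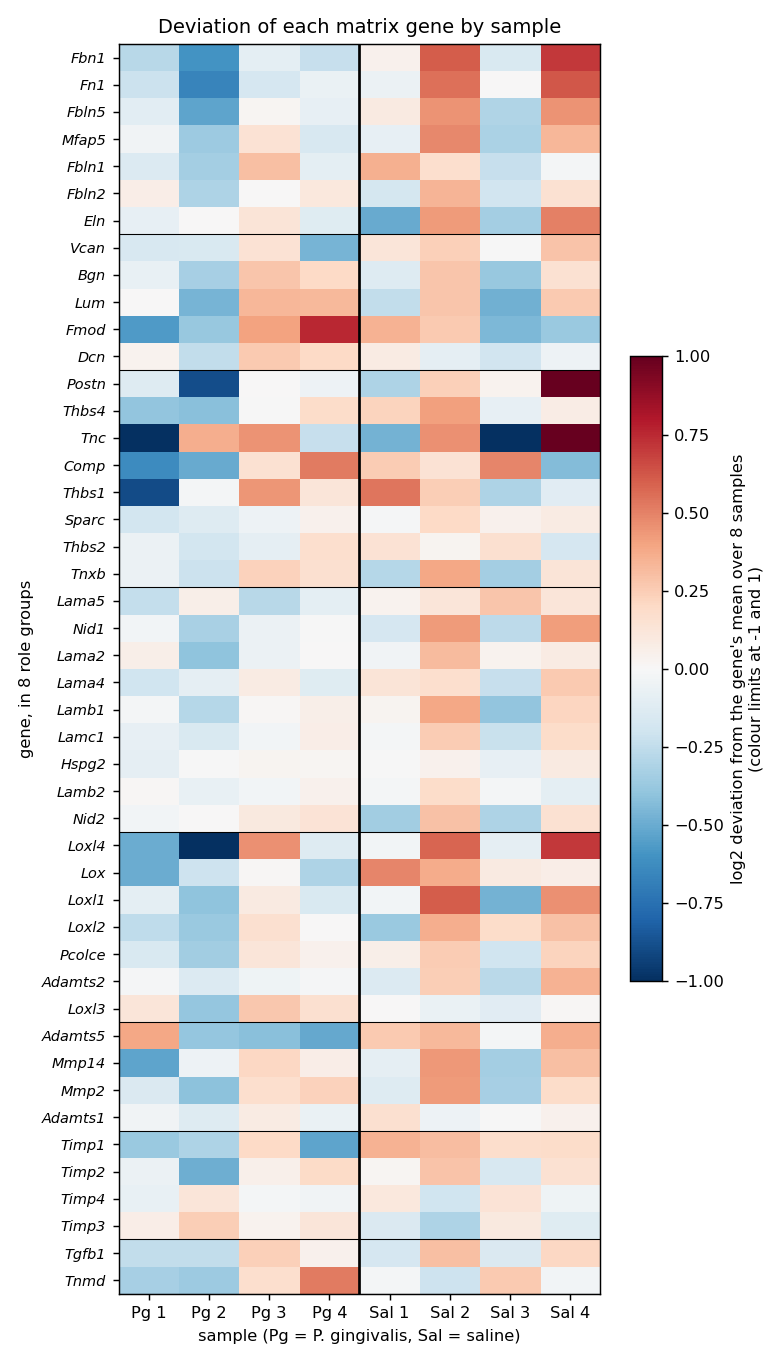
Deviation of each of the 46 matrix genes (rows) from its own mean over the 8 samples (log2, colour scale), with the P. gingivalis samples in the left columns and the saline samples in the right ones. P. gingivalis 2 is above the mean in 6 genes, against 40 and 36 in saline 2 and 4, while the Timp3, Timp4 and Lama5 rows run the other way in several samples.

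After the group means were removed, 76.9% of the 1035 pairs of matrix genes had a correlation above 0, with a median r of 0.42 over 8 samples. The mean r was 0.33 among these pairs and 0.0053 over all pairs of genes tested. These correlations describe samples that share a slide and a scan, and they carry no test. The first principal component held 55.8% of the genes' variation within groups and the second 19.7%. Genes were not scaled to equal spread, so those with a wide spread weigh more in these shares. Tnc had the widest, with SDs of 0.72 in P. gingivalis and 1.48 in saline samples. It was well above background on only 3 P. gingivalis and 2 saline arrays. The genes closest to the shared pattern were Fbn1, Tnxb, Pcolce and Bgn, with median correlations to the other members of 0.71 to 0.73. Timp3 (-0.62), Timp4 (-0.60) and Lama5 (-0.39) ran opposite to it. Comp, Fmod, Tnmd and Thbs4, all expressed in tendon, correlated with each other at 0.51 to 0.95, and Comp and Tnmd had median correlations of only 0.10 and 0.13 with the members. Lox and Timp1, with the smallest p-values, also followed the shared pattern weakly, with medians of 0.17 and 0.18.

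Markers of other cells moved with this pattern. The 10 fibroblast markers, all measured, had mean deviations of -0.062, -0.28, 0.18 and 0.17 in P. gingivalis samples, against -0.17, 0.33, -0.35 and 0.19 in saline samples. Their summed level was 124 to 158 times the 75th percentile in P. gingivalis samples and 122 to 170 times in saline samples. Of the 10, 5 had a log2 difference below 0, with a median of 0.0041, and Lsp1 (-0.41) and Clec3b (0.41) were the largest. The 9 macrophage markers, all measured, had mean deviations of -0.22, -0.55, 0.18 and 0.068 in P. gingivalis samples, against 0.059, 0.70, -0.70 and 0.45 in saline samples. Their summed level was 14.4 to 25.2 times in P. gingivalis samples and 14.4 to 44.3 times in saline samples, with log2 differences below 0 for 8 of 9, among them Lyz2 (-0.59) and Adgre1 (-0.53). Without saline 2, 5 of the 9 were below 0. Both lists were low in P. gingivalis 2 and saline 3 and high in saline 2 and 4, as the matrix genes were, and their part in the differences was not tested.

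The tendon markers, 8 of 8 measured, had a summed level of 28.3 to 42.9 times the 75th percentile in P. gingivalis samples and 36.6 to 45.4 times in saline samples. Of these markers, Tnmd, Thbs4 and Fmod are themselves among the genes described. Their mean deviations were -0.39, -0.25, 0.21 and 0.22 in P. gingivalis samples, against 0.11, 0.078, 0.25 and -0.23 in saline samples. In the P. gingivalis group these follow Comp and Thbs4, low in P. gingivalis 1 and 2. In the saline group they were highest in saline 3, where Comp was highest but Thbs4 lowest. The part of the tendon markers in the differences was not tested. Of them, Egr1 (-0.71) and Kera (0.44) had the largest differences.

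**Figure D4:**
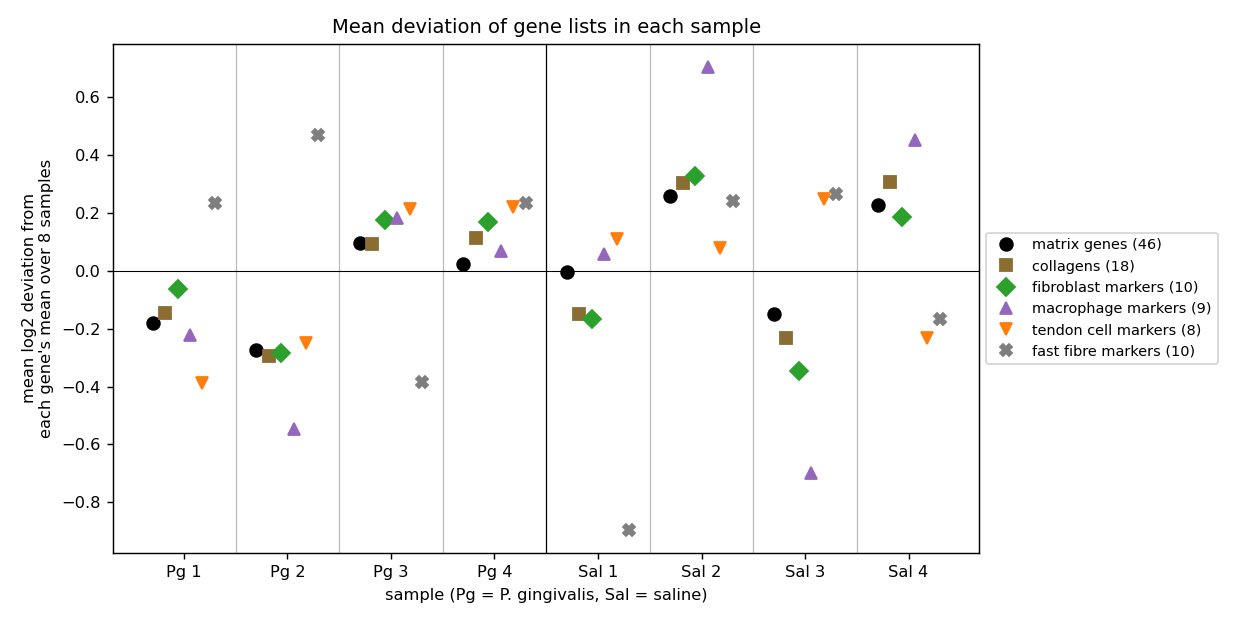
Mean log2 deviation from each gene's mean (y axis) of the 46 matrix genes, 18 collagens and 4 marker lists in each sample (x axis), P. gingivalis samples left of the line and saline samples right of it. The matrix genes, collagens, fibroblast and macrophage markers are low in P. gingivalis 2 and saline 3 and high in saline 2 and 4, while tendon and fast-fibre markers are ordered otherwise.

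Fast-fibre markers, which are abundant in the muscles beside the soleus, had a summed level of 2763 to 3555 times the 75th percentile in P. gingivalis samples and 2495 to 2925 times in saline samples. All 10 were measured and all had a log2 difference above 0, with a median of 0.20, and Myh4 (0.83 ± 1.38 SE) and Atp2a1 (0.50) were the largest. Saline 1 was low in several of them: without it 7 of the 10 were above 0, the median was 0.13, and Myh4 (-0.38), Actn3 (-0.52) and Pvalb (-0.27) were below 0. Tnnt3, the brightest fast-fibre marker, had log2 levels of 9.53 in P. gingivalis and 9.40 in saline samples. Those of the slow-fibre marker Tnnt1 were 9.41 and 9.27. The fast-fibre sum therefore cannot tell neighbouring muscle from the soleus itself. The 10 endothelial markers, all measured, had a summed level of 45.3 to 52.7 times in P. gingivalis samples and 57.9 to 61.8 times in saline samples. Their differences were below 0 for 7 of 10, with a median of -0.13, and Kdr (-0.55) and Cldn5 (-0.40) were the largest. The 6 neutrophil markers were all below 0, with a median of -0.94, led by S100a8 (-2.21 ± 0.72 SE) and S100a9 (-2.10 ± 0.79 SE). S100a9 stood at 1.13, 0.66, -2.27 and -2.01 in saline samples, against -2.97 to -2.24 in P. gingivalis samples. S100a8 in saline 3 (-4.30) lay within the P. gingivalis range of -4.635 to -3.995. Cxcr2 was well above background on only 4 arrays. The summed level of the 6 was 58.9 to 73.9 times in P. gingivalis samples and 71.3 to 84.9 times in saline samples. Csf3r, with a log2 difference of -0.24, made up 98.4% to 98.7% of that sum in P. gingivalis samples and 95.6% to 98.8% in saline samples, and the other 5 markers summed to 0.858 to 1.003 times in P. gingivalis samples and 0.985 to 3.67 times in saline samples. The part of these lists in the matrix genes' differences was not tested.

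Different probes of a gene did not always agree. Of the 101 probes for the 47 genes, 89 were kept, and 10 genes had kept probes with log2 differences on both sides of 0: Adamts2, Bgn, Fbln1, Hspg2, Lama4, Lamb1, Sparc, Tgfb1, Timp3 and Timp4. For Timp3, 2 probes were at 0.24 and 0.22 and the remaining one at -0.22 ± 0.31 (SE), with a mean of 0.079. The widest gaps with a small SE were in Lamb1, the laminin beta-1 chain, and Hspg2, perlecan. Their probes are shown because each names a different place in the same gene, in the order Lamb1 upstream, Lamb1 downstream and Hspg2, and no base is marked.

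Lamb1 A_55_P2737049 (mm9, chr12:31967514-31967573, plus strand): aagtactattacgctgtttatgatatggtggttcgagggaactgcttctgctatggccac
Lamb1 A_51_P244287 (mm9, chr12:32012684-32014030, plus strand): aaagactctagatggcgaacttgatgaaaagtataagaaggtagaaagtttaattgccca
Hspg2 A_55_P1959648 (mm9, chr4:137125445-137125504, plus strand): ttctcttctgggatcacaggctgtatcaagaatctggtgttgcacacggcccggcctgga

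The upstream Lamb1 probe had a log2 difference of -0.66 ± 0.12 (SE), with an adjusted p of 0.0654 by limma over all kept probes. The downstream one had 0.066 ± 0.17 (SE), and the brightest Lamb1 probe, which stands for the gene, had -0.12. The Hspg2 probe shown had 0.42 ± 0.086 (SE, adjusted p 0.0701 by limma over all kept probes), against -0.025 for the brightest Hspg2 probe. The value of either gene therefore depended on the probe read. In Lama4 and Sparc, the highest of the probes on the positive side was well above background on all 4 P. gingivalis arrays but on 0 saline arrays. These probes thus passed the filter of 4 arrays only through the group where they were higher. The other kept Sparc probes were at -0.16 and -0.012, so the place of Sparc among the 10 genes rests on that probe alone. For the Lama4 probe the mean signal in P. gingivalis samples was at least 1.35-fold that in saline samples, against a floor of the lowest well-measured signal on each saline array. That bound rests on 1 array: the probe stood at -5.40, -4.93, -5.46 and -1.90 in P. gingivalis samples, against -5.26, -5.21, -5.10 and -5.50 in saline samples, and without P. gingivalis 4 the same floor gave no fold above 1. For the Sparc probe the floor gave no fold above 1 with all arrays.

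**Figure D5:**
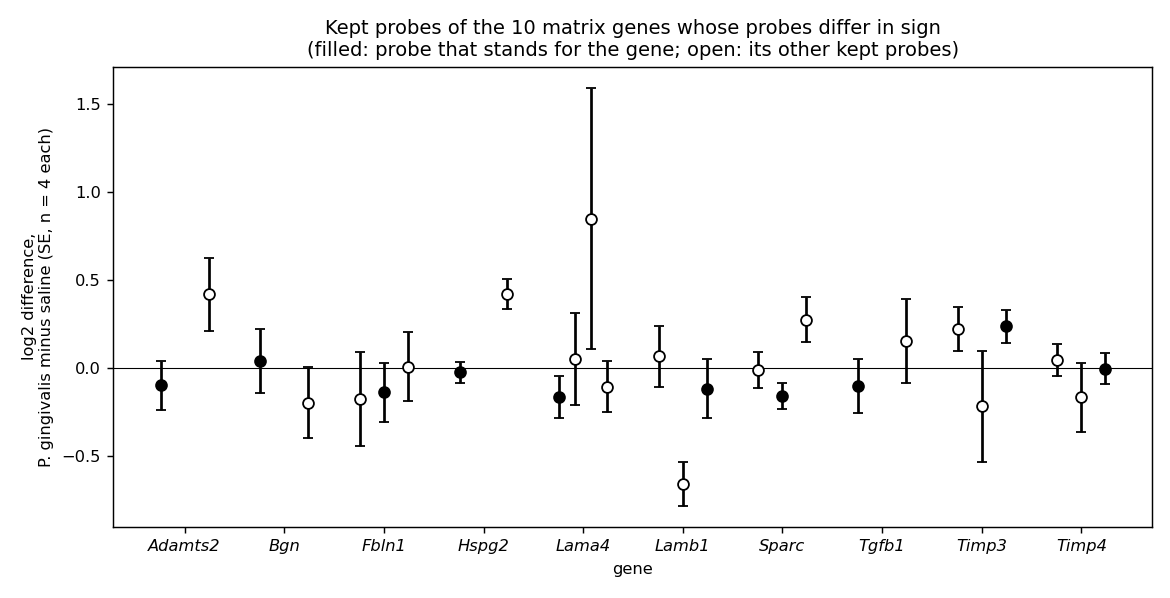
Log2 difference (y axis, P. gingivalis minus saline) with standard errors of every kept probe of the 10 matrix genes whose probes lie on both sides of 0 (x axis). The filled point is the brightest probe, which stands for the gene. Lamb1 spans -0.66 to 0.066 and Hspg2 -0.025 to 0.42, and 1 probe each of Lama4 and Sparc was well above background on 0 saline arrays.

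A wider list of 77 matrix, integrin and growth factor signalling genes outside the 47 had 72 measured, and 0 passed the adjusted threshold of limma. Of the 72, 43 had a log2 difference below 0 (59.7%, against 52.3% of all genes) and 29 above 0, with a median of -0.058. An unadjusted p under 0.05 by limma was found for 13 of the 72, where 19.7% of all genes had one. Of the 13, 9 were below 0 and 4 above, where the shares over all genes were 9.66% and 10.1%. Adamts4, a protease of aggrecan and versican, had the largest, -1.17 ± 0.30 (SE, adjusted p 0.111 by limma). Has2, which makes the hyaluronan that versican binds, had -1.05 ± 0.16 (SE, adjusted p 0.0578 by limma). The log2 levels of Has2 were -4.14, -4.01, -3.99 and -4.18 in P. gingivalis samples, against -3.00, -2.86, -3.52 and -2.75 in saline samples. Its groups did not overlap, which held for 7 of the 72 genes and for 13.4% of all genes.

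The 18 collagen genes were all measured and 0 passed the threshold. The log2 difference was below 0 for 15 of the 18 (83.3%, against 52.3% of all genes), with a median of -0.087 (-0.025 without saline 4). An unadjusted p under 0.05 by limma was found for 2 of the 18, where 19.7% of all genes had one. Col5a3 (-0.54 ± 0.19 SE, adjusted p 0.190 by limma) and Col8a1 (-0.35 ± 0.28 SE) were the largest. The collagens averaged -0.15, -0.29, 0.093 and 0.11 from their means in P. gingivalis samples, against -0.15, 0.30, -0.23 and 0.31 in saline samples. As in the 46 matrix genes, P. gingivalis 2 and saline 3 were low and saline 2 and 4 high, while saline 1 was low in the collagens and near the mean in the matrix genes.

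The authors' deposited table holds 67 rows for 46 of the 47 genes, and 0 of these have an adjusted p under 0.05, where 1.53% of all 28250 rows do. Of the 67 rows, 51 are higher in the columns named for P. gingivalis, the opposite of the sample records. The authors' deposited table gives Lama5 a log2 difference of 0.37 with an adjusted p of 0.0729. It gives Timp1 a log2 difference of 0.47 and Lox one of 0.35 in that table's own direction. All 8 of its columns follow the array of the other group with the same number, with a correlation of 0.861 to 0.898 after each gene was centred, while the correlation with the array of their own name is -0.33 to -0.054.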

How the data were processed

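Soleus RNA (200 ng) was labelled with Cy3 and hybridised to 8 Agilent arrays. Per the file headers, the deposited intensity values came from Feature Extraction 11.0.1.1 and were background-subtracted, with probe positions on mm9, while the submitters' processing notes list version 11.1. The deposited table gives log2 values and p-values by the authors, and its other statistics were not used.

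From the log2 of the processed signal, the 75th percentile of its array was taken off. Neither control spots nor spots flagged by the scanner as outliers were used. Of 56605 probes, 33636 well above background on at least 4 arrays were kept. Genes were named through RefSeq's table (accession 32994 probes, symbol 10224, older symbol 520, otherwise the file's name) and represented by their brightest kept probe. The comparison used limma 3.58.1 (R 4.3.3; two-sided moderated test from lmFit with eBayes), adjusted by Benjamini-Hochberg over 22221 genes at a threshold of 0.05. The fit was tested on simulated data.

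The members and lists were chosen with earlier results of these data known. Values in every sample are given for genes past the threshold or without overlap, and for the largest differences among genes well above background on all 8 arrays, up to 14 genes. The extremes of each role group, genes with probes of opposite sign, and up to 2 genes of each other list are also named; 1 gene so named is not reported here. Alternatives covered background correction, scaling, the filter, the probe rule, replicate number, variance models, weights and samples left out. The number of arrays limits the precision.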

Additional observations from a re-analysis of the deposited data

Results flagged for a closer look

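In each of the 46 measured genes the 4 samples of each group were examined for a sample far from the other 3, by Dixon's criterion. It marked 3 of 92 groups, and chance marks about 1 in 20. Adamts5 in P. gingivalis 1 was high, with a log2 level of -2.92, against -3.82 to -3.69 in the other P. gingivalis samples. Postn in P. gingivalis 2 was low, with a log2 level of 0.68, against 1.44 to 1.57 in the others. Nid1 in P. gingivalis 2 was low, with a log2 level of 2.81, against 3.07 to 3.13 in the others. All 3 lie in the P. gingivalis group, and 2 in the array whose extraction status was not in range.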

How the results depend on the processing

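The count of matrix genes past the adjusted threshold was 0 under every alternative run, while the count over all genes was 26 in the report and moved with nearly every choice. It was 451 with normexp background correction, 174 with quantile normalization, 1924 with median centring, 261 when every kept probe had to be well above background on all 8 arrays, 5154 with no filter, 9 with the mean of a gene's probes, 567 with a trended and robust variance, 199 with array weights, and 2 to 6 with each sample left out. Chosen after seeing the data, centring on the median of kept probes gave 91, and leaving out both saline 1 and P. gingivalis 3 gave 0. Higher and lower calls numbered 8 and 18 in the report, 1838 and 86 with median centring, 121 and 53 with quantile normalization and 57 and 34 with the kept-probe median.

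Under the replicate block, limma called 0 genes past the threshold, and 4 matrix genes had an unadjusted p under 0.05. The share over all genes at that unadjusted p under the block is not given. The count of 4 therefore cannot be read as a result about the matrix genes. Samples of the same number correlated at 0.064, -0.058, -0.041 and 0.23 in their deviations from the group means. The saline sample closest to P. gingivalis 1 and to P. gingivalis 4 had the same number, while that closest to P. gingivalis 2 and 3 did not. Whether the numbers pair the samples cannot be settled from these values.

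The count of matrix genes below 0 was 24 with median centring, against 38, and 33 to 40 with a sample left out. The count without overlap was 1 with quantile normalization, median centring and the kept-probe median, against 2. It was 2 to 6 with a sample left out (4 without P. gingivalis 2, 6 without P. gingivalis 3 or saline 3, 5 without saline 1) and 9 without both saline 1 and P. gingivalis 3. Smaller groups overlap less often in any gene, and the share over all genes with samples left out is not given. These rises therefore cannot be read as a result about the matrix genes. The count with an unadjusted p under 0.05 was 2 with median centring, against 7, and 3 (without saline 2 or 4) to 11 (without saline 3). For that count, too, the share over all genes under these settings is not given. The median difference of the matrix genes was -0.21 to -0.076 with a sample left out.

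For the matrix genes that the naming rule above picked, 42 values changed sign under alternatives and 546 did not. Those that did are near 0 or have disagreeing probes. With median centring they were Fbln1 (0.0095), Lamb1 (0.029), Tgfb1 (0.048), Adamts2 (0.049), Adamts1 (0.074), Eln (0.11), Hspg2 (0.12), Tnmd (0.14) and Timp4 (0.14). With the mean of probes they were Lama4 (0.16), Sparc (0.035), Tgfb1 (0.025), Adamts2 (0.16), Hspg2 (0.20) and Bgn (-0.078). The means of Lama4 and Sparc include a probe that was kept only through the P. gingivalis arrays. Normexp gave Timp4 0.020, array weights gave Timp4 0.012 and Bgn -0.0044, and the kept-probe median gave 0.018 for Tnmd and for Timp4. Without saline 1 and P. gingivalis 3 together, Timp4 was 0.038, Bgn -0.084, Tnxb -0.10 and Nid2 -0.0070. With single samples left out, the difference was -0.056 to 9.2e-05 for Hspg2, -0.18 to 0.12 for Tnmd, -0.070 to 0.040 for Timp4, -0.081 to 0.16 for Bgn, -0.051 to 0.19 for Tnxb, -0.21 to 0.12 for Eln and -0.20 to 0.0012 for Adamts2. Matrix genes outside that tally also changed sign with single samples left out. Tnc ran from -0.80 to 0.36, Thbs1 from -0.35 to 0.092, Fmod from -0.13 to 0.31 and Lum from -0.048 to 0.27. Mmp2 ran from -0.20 to 0.052, Fbln2 from -0.14 to 0.037 and Lamb2 from -0.059 to 0.033. The cause of each change was not tested.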

Other observations

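Other cell types had values that no paragraph above gives. The 6 red blood cell markers all had a log2 difference above 0, with a median of 0.62 (0.29 without saline 3), and their summed level was 671 to 1057 times the 75th percentile in P. gingivalis samples and 315 to 968 times in saline samples. Hbb-b1 (0.88) and Hbb-b2 (0.73) were the largest, and none of the 6 passed the adjusted threshold of limma. The 8 smooth muscle and pericyte markers had 5 log2 differences above 0, with a median of 0.12. Their summed level was 297 to 344 times in P. gingivalis samples and 265 to 293 times in saline samples. Most of that sum came from Acta2, with a log2 level of 8.07 in P. gingivalis samples and 7.92 in saline samples. Cnn1 (-0.28) and Rgs5 (0.25) had the largest differences. The 8 Schwann cell and nerve markers had 6 log2 differences below 0, with a median of -0.18, and a summed level of 16.3 to 20.6 times in P. gingivalis samples and 18.6 to 20.9 times in saline samples; Ncmap (-0.38) was the largest.

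The 6 adipocyte markers had a median log2 difference of -0.10, and their summed level was 14.9 to 38.0 times in P. gingivalis samples and 15.2 to 42.1 times in saline samples, with P. gingivalis 2 and saline 1 the highest of their groups. Plin1 (-0.34) and Cfd (-0.17) were the largest. Of the 4 satellite cell markers, 3 were measured, with a summed level of 4.65 to 5.17 times in P. gingivalis samples and 4.12 to 4.97 times in saline samples, and log2 differences of 0.15 for Cdh15 and -0.13 for Pax7. None of the markers in these lists passed the adjusted threshold.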
